A study of Mus musculus with 4 samples.

Results

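The regions described here are 2678 CUT&RUN peaks from mouse molar tooth germs, called with an antibody to phosphorylated Smad1 and Smad5 (pSmad1/5). They lay between genes and met no called peak of phosphorylated Smad3 (pSmad3). They were taken from the 10741 peaks of the pSmad1/5 list by 4 criteria. A peak had to lie on chromosomes 1 to 19 and to have a maximum signal of at most 32, which is 2 times the list median of 16. It had to overlap none of the 7905 pSmad3 peaks by 1 bp or more. Its midpoint had to lie outside, and over 1 kb from, every protein-coding and lncRNA gene of the RefSeq annotation of mm10. The peaks make up 24.9% of the pSmad1/5 list (exact 95% Clopper-Pearson interval 24.1 to 25.8), and 14 to 18 is the interquartile range of their maximum signal. The peaks were thus chosen by measured values, namely maximum signal, overlap with pSmad3 and distance from genes, and these are given as description only.

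The embryos were wild-type CD1 mice at E13.5 (embryonic day), with no transgene or treatment named. Each antibody was used on 2 libraries, and the authors deposited 1 joined peak list per antibody. Whether germs of several embryos were pooled is stated nowhere in the labels, and a germ can hold epithelium, mesenchyme, vessels and nerve. Peak calls hold no measure of RNA, so the tissue could not be checked by marker expression. With 1 list per antibody no value has a replicate check, read depth is unknown, and all intervals cover counting error only. A missing pSmad3 peak means no deposited call, not an absence of signal.

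In CUT&RUN an antibody brings a nuclease to the protein of interest on chromatin, and the DNA it releases is sequenced. Smad1 and Smad5 are phosphorylated by receptors for bone morphogenetic proteins (BMPs), join Smad4 and bind DNA with other factors, whereas Smad3 is phosphorylated by receptors for TGF-β and activins. In the early tooth, BMP4 passes between epithelium and mesenchyme and acts with Msx1, and sequences between genes often hold enhancers that control genes at a distance. Whether any of these peaks is an enhancer was not measured.

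No sequence of the peaks themselves was used here, but a few hold a stretch that RefSeq lists (GRCm38.p6, the assembly of mm10). These sequences are shown because they say what stood under the peaks. Of 919 microRNA hairpins on chromosomes 1 to 19, 3 overlapped one of the peaks. The whole pSmad1/5 list overlapped 49 hairpins, and the whole pSmad3 list also 49. Of all hairpins, 751 lie in or within 1 kb of a protein-coding or lncRNA gene, where the criteria allow few peaks. Mir212 and Mir132, neighbours on chromosome 11, lay in a single peak (chr11:75172653-75175106), and Mir210, a microRNA known for its response to low oxygen, lay in another (chr7:141219924-141221841). Capitals mark the seed, bases 2 to 8 of the mature microRNA, which pairs with target messages. The 3p arms of miR-212 and miR-132 share the seed AACAGUC, and the other 4 arms each have a seed of their own.
miR-212-3p: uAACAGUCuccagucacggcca
miR-132-3p: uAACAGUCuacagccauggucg
miR-212-5p: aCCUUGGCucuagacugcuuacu
miR-132-5p: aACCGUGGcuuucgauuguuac
miR-210-3p: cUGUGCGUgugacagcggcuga
miR-210-5p: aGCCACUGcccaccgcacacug

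The peak over Mir212 and Mir132 had a total signal of 78714 and a maximum of 16. Its region of highest signal ran from 75172720 to 75173886 and covered both hairpins. The nearest gene was Ovca2, 2064 bp from the peak midpoint, and the nearest pSmad3 peak was 16.1 kb away. The peak over Mir210 was 1 of 2 pieces of a call with a total signal of 75690 and a maximum of 14. The highest signal of this call lay outside the piece with the hairpin. The midpoint of that piece was 2224 bp from Rassf7, and a pSmad3 peak lay 2.19 kb away.

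A peak whose midpoint is over 1 kb from a gene can still reach the gene's start with its edge. Of 31396 promoter windows in RefSeq (250 bases before to 50 bases after a start, 300 bases in all), 42 overlapped one of the peaks and 24 lay wholly inside one. These 24 belonged to 13 protein-coding and 9 lncRNA genes. Motifs known from Smad studies were searched on both strands. They were the GC-rich element GGCGCC, the Smad-binding palindrome GTCTAGAC, the shorter Smad box CAGACA, and the bipartite BMP-responsive element, whose GC-rich part GGCGCC also matches. GGCGCC stood in 3 of the 24 windows (12.5%, exact 95% interval 2.66 to 32.4), against 12.1% of all windows. CAGACA also stood in 3 of 24, against 20.9% of all, and GTCTAGAC (0.223% of all) and the bipartite element (0.672% of all) stood in none. With 24 windows these shares are imprecise, and both intervals hold the share of all windows. The median GC content was 50.2% in the 24 windows and 53% in all windows.

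The 3 windows with GGCGCC, in capitals, are those of Xkr7 (chr2:153031602-153031901, plus strand), Flvcr2 (chr12:85746289-85746588, plus strand) and Fndc1 (chr17:7827253-7827552, minus strand). Flvcr2 codes for a membrane transporter and Fndc1 for a protein with fibronectin type III domains. Gdf2, which codes for the ligand BMP9, is shown as a BMP pathway gene whose window (chr14:33940789-33941088, plus strand) lay inside a peak and held none of these motifs. It was chosen after its values were seen. Each is written 5′ to 3′ along its gene.
Xkr7 promoter: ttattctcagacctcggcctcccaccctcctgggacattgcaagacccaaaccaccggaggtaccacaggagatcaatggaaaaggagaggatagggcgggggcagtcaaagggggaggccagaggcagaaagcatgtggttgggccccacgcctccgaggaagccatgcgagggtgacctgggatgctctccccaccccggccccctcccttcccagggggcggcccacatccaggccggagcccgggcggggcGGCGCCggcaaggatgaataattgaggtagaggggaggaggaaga
Flvcr2 promoter: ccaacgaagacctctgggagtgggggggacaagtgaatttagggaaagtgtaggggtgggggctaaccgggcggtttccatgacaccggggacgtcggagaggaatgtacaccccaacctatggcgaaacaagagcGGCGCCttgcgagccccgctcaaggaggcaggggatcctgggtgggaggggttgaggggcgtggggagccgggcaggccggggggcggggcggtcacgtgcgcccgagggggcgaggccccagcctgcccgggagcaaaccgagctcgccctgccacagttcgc
Fndc1 promoter: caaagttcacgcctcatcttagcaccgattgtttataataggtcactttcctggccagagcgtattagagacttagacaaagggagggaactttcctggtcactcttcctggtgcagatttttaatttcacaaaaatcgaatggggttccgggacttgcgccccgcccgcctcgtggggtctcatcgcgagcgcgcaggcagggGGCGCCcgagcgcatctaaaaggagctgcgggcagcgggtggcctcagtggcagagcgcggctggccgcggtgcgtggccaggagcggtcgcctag
Gdf2 promoter: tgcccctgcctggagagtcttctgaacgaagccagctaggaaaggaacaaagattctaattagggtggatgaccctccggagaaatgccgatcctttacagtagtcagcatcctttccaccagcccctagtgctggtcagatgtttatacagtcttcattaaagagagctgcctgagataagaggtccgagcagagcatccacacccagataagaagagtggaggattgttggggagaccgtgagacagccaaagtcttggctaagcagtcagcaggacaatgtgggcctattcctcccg

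Counted from 1 at the 5′ end, GGCGCC began at base 256 in Xkr7, 137 in Flvcr2 and 205 in Fndc1, and the listed start follows the first 250 bases. Total signal was 54170 at Xkr7, 52140 at Flvcr2, 37459 at Fndc1 and 40394 at Gdf2. All 4 were below the list median of 55037, and those at Fndc1 and Gdf2 were above only 8.06% and 18.3% of the list. A match of letters is a description and not a binding site.

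The peaks came from 2405 calls of the peak caller and covered 6.24 Mb. A call split into pieces is listed as several peaks that share 1 total and 1 maximum signal, so pieces are not independent. Of these calls, 2144 consisted only of such peaks and 261 had other pieces inside genes, next to them or over a pSmad3 peak. The region of highest signal lay wholly inside the peak for 701 of 2678 peaks (26.2%), so the signal given for a peak is that of its call. A region that only partly overlapped the peak counts as not inside, here and below.

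The share of peaks that lay between genes was close in pSmad1/5-only and pSmad3-only peaks. Between genes lay 33.3% of the 8049 pSmad1/5-only peaks under the limit on the maximum (32.2 to 34.3). The same share was 31.6% of pSmad3-only peaks (30.4 to 32.8), with the limit set at 26, 2 times that list's median of 13. Among pSmad1/5 peaks that overlapped pSmad3 it was 35.1% (32.8 to 37.5). The intervals of neighbouring values in this order overlap. Space over 1 kb from genes makes up 50.1% of the 2403 Mb examined, so all 3 classes took a smaller share there than the space itself.

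Few peaks lay at the limit on the maximum, and more at the limits on distance. Maximum signals of 29, 30, 31 and 32 were held by 11, 8, 4 and 2 peaks, and values of 33, 34 and 35, just outside, by 3, 6 and 8. In all, 95 peaks missed only the limit on the maximum. Within 200 bp of the margin around genes, 52 peaks lay inside the criteria and 36 outside. Within 200 bp of a pSmad3 peak edge, 23 were kept for a gap and 23 left out for an overlap.

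The peaks had a lower median total signal than their list as a whole (55037), and the highest stood above 96.9% of the list. The whole list, with totals up to 920389742, includes the peaks left out for their maximum or for meeting pSmad3. The median total signal of the peaks between genes was 48357 (exact 95% interval of the median 47348 to 48967, range 35630 to 611514), with 35630 also the lowest value in the list. The pSmad1/5-only peaks inside genes had a median of 51289.5 (50728 to 52066), those within 1 kb of a gene end 52584 (50623 to 54773), and the 568 peaks between genes that overlapped pSmad3 had 84652 (77991 to 91726). These intervals count pieces of 1 call separately although they share 1 total, so they are too narrow. The 2678 peaks between genes came from 2405 calls, and the 568 shared peaks from 430. The interval of the peaks between genes lies below the other 3, but more peaks of the other classes came from calls in several pieces. That share was 28.0% between genes, 33.4% inside genes, 37.1% at gene ends and 59.0% among the shared peaks, and its part in the difference was not tested. Total signal rose with the number of pieces, from a median of 45123 for 1928 peaks in 1 piece to 60203 for 586 in 2 pieces and 116980 for 164 in 3 or more.

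Width did not set the pSmad1/5-only classes apart. The median was 2332.5 bp between genes (2297 to 2366), 2316 bp inside genes (2291 to 2341) and 2342 bp at gene ends (2291 to 2404). Shared peaks between genes were wider, at 2798 bp (2642 to 2908). They are defined by an overlap, which a wider peak can meet more readily, and the part of this was not tested. Between genes, widths ran from 4 to 9189 bp, and 159 peaks were under 500 bp.

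**Figure D1:**
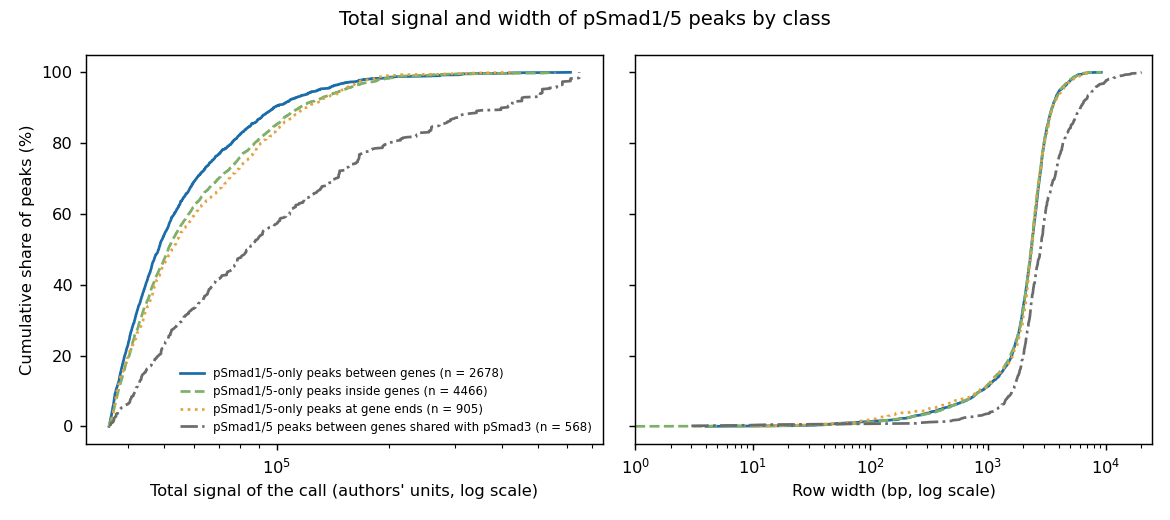
Cumulative share of pSmad1/5 peaks (vertical axis, %) by the total signal of the call (left, authors' units, log scale) and by peak width (right, bp, log scale), one line per class. The line of peaks between genes lies to the left on total signal (median 48357 against 51289.5 inside genes and 84652 for shared peaks), while the 3 pSmad1/5-only lines nearly coincide on width.

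The pSmad3 peak nearest to each of these peaks was at a median of 56059.5 bp (51345 to 59589). Of the peaks, 289 (10.8%) had one within 5 kb, 1273 (47.5%) within 50 kb and 2531 (94.5%) within 1 Mb. The farthest was 5984829 bp away. The distance was shorter for pSmad1/5-only peaks inside genes, at 34157 bp (32028 to 36186), and at gene ends, at 30884 bp (27141 to 36672). Peaks near pSmad3 had higher total signal: the median was 65841 within 5 kb (60005 to 74425), 51575.5 at 5 to 20 kb, 47199 at 50 to 200 kb and 42443 beyond 1 Mb (41344 to 43969, 147 peaks). Of the peaks within 5 kb of pSmad3, 49.5% came from calls in several pieces, against 20.4% beyond 1 Mb, and the part of this in the trend was not tested. Median width showed no such order, at 2268 bp within 5 kb and 2496 bp beyond 1 Mb.

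Most peaks lay within 50 kb of a gene. The median distance from the midpoint was 14261.5 bp to the nearest protein-coding or lncRNA gene and 28877 bp to the nearest protein-coding gene (26767 to 30859). For pSmad3-only peaks between genes the distance to a protein-coding gene was 27515 bp (25603 to 30243), an interval that overlaps. A lncRNA was the nearest gene of 1217 peaks (45.4%). By distance to a protein-coding gene, 442 peaks lay within 5 kb, 313 at 5 to 10 kb, 916 at 10 to 50 kb, 360 at 50 to 100 kb, 588 at 100 to 500 kb and 59 beyond.

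Set against the space available at each distance, the peaks grew sparser away from genes. There were 4.51 peaks per Mb at 1 to 5 kb from a protein-coding or lncRNA gene (exact Poisson 95% interval 4.17 to 4.88), 2.52 at 20 to 50 kb (2.32 to 2.72) and 0.837 at 100 to 200 kb (0.699 to 0.995). Beyond 500 kb there were 0.234 (0.131 to 0.387, 15 peaks). The pSmad3-only peaks between genes fell in the same order, from 3.25 per Mb at 1 to 5 kb (2.96 to 3.56) to 0.203 beyond 500 kb (0.108 to 0.347). The share of the genome that reads can be placed on was not given, so unmappable stretches count as space in both. Pieces of 1 call count as separate peaks in these densities, so the Poisson intervals are too narrow.

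**Figure D2:**
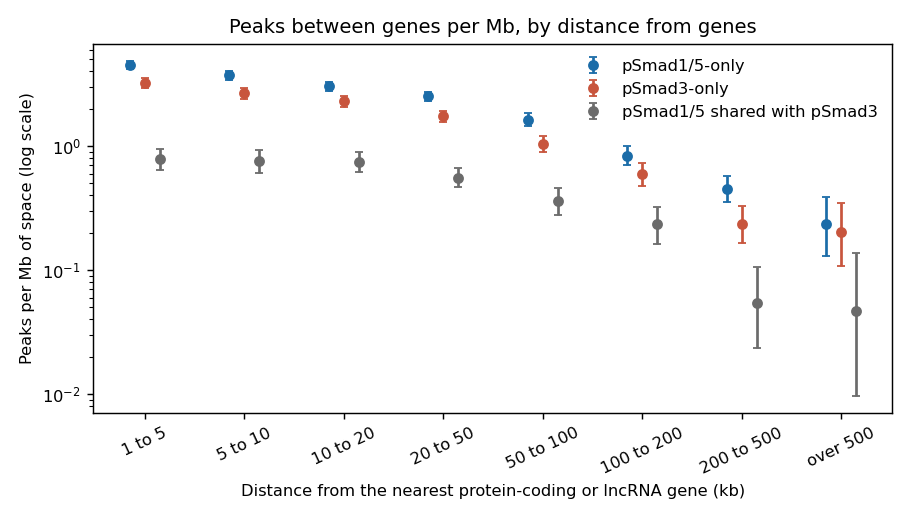
Peaks between genes per Mb of space over 1 kb from genes (log scale) by distance from the nearest protein-coding or lncRNA gene (kb), with exact Poisson 95% intervals, for pSmad1/5-only, pSmad3-only and shared pSmad1/5 peaks. All 3 classes fall with distance, pSmad1/5-only from 4.51 per Mb at 1 to 5 kb to 0.234 beyond 500 kb. The intervals count pieces of 1 call as separate peaks.

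The peaks lay on both sides of genes in nearly equal numbers. The strand of the nearest protein-coding gene was known for 2101 peaks, and 1053 of these (50.1%, 48.0 to 52.3) lay upstream of it. Of the space between genes, 52.7% is upstream by the same measure, just above that interval. At 1 to 5 kb from the gene 47.0% lay upstream (41.6 to 52.5, 334 peaks).

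Chromosomes differed in how densely these peaks lay. Chromosome 5 had 3.11 peaks per Mb of space between genes and chromosome 11 had 3.09, whereas chromosome 3 had 1.21. Over all 19 chromosomes the density of these peaks was 2.22 per Mb, and that of pSmad3-only peaks between genes 1.57. Within each chromosome the pSmad1/5-only density was the higher, from 2.03 against 1.99 on chromosome 19 to 2.41 against 1.04 on chromosome 10. The lists differ in length and were called separately, and the part of this in the order was not tested.

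**Figure D3:**
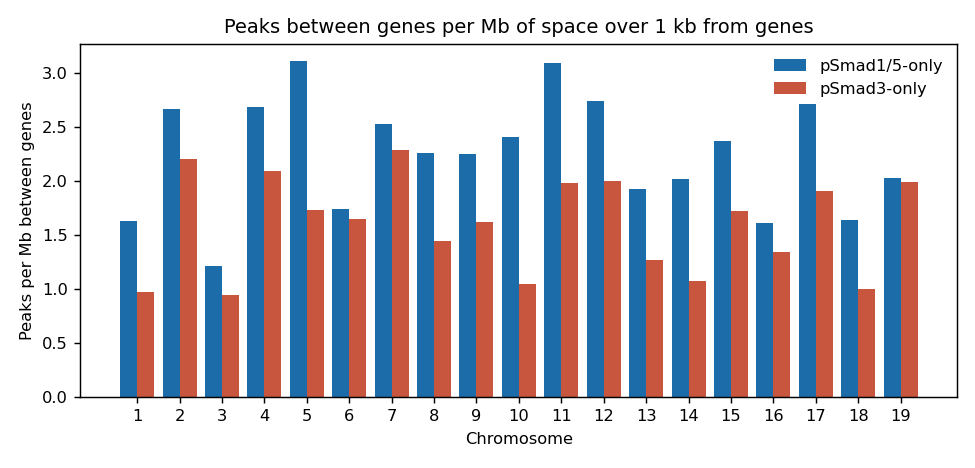
Peaks per Mb of space over 1 kb from genes (vertical axis) for each chromosome from 1 to 19, as bars for pSmad1/5-only and pSmad3-only peaks between genes. The pSmad1/5-only bars run from 1.21 on chromosome 3 to 3.11 on chromosome 5.

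Neighbouring calls were mostly far apart. The median distance to the next call of the same class was 163 kb (149 to 178), and 66 peaks (2.46%, 1.91 to 3.12) had one within 10 kb. Among pSmad3-only peaks between genes that share was 9.52% (8.24 to 10.9), with an interval above that of the pSmad1/5-only peaks. Pieces of the same call do not count as neighbours here. Calls in several pieces gave 28.0% of the pSmad1/5-only but 4.39% of the pSmad3-only peaks, and the part of this in the difference was not tested. Divided into windows of 1 Mb, the genome had 610 windows with 1 call, 270 with 2 and 306 with 3 or more, and 89 windows with 5 or more calls held 603 of the peaks.

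The window with the most calls began at position 18000000 of chromosome 12, with 11 calls around Zfp996, Gm9241 and Gm40847. It held 48 pSmad1/5 and 30 pSmad3 peaks in all, and the median total signal of its 13 peaks between genes was 130980. The window from 104000000 of chromosome 12 had 10 calls between Dicer1, which processes microRNAs, Gsc, a homeobox gene, and the Serpina protease inhibitor cluster. Windows with 9 calls began at 111000000 of chromosome 5 (Mn1 and Cryba4), at 118000000 of chromosome 5 (Med13l, a Mediator subunit, and Spring1) and at 121000000 of chromosome 8. The last holds the forkhead genes Foxf1, Foxc2 and Foxl1, and its 10 peaks had totals from 40141 to 146699.

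Single genes drew up to 10 calls. At any distance, 1928 of 20560 protein-coding genes (9.38%) were the nearest to a peak. Of these, 1596 had 1 call, 235 had 2, and 20 had 5 or more. Ajap1, which codes for a membrane protein of adherens junctions, had 10 calls in 11 peaks, from 4.997 to 399 kb away, on both sides and with totals from 35789 to 137318. Gadd45g, a gene of the response to stress and DNA damage, had 7 calls, 1 upstream and 6 downstream, up to 280 kb away with totals from 51935 to 121024. 4930591A17Rik and Gm46305 also had 7 each, and all 8 peaks of the former lay upstream.

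Mn1, a transcriptional coregulator needed for palate development, had 6 calls from 2.343 to 391 kb from the gene, and its maximum signals were 13 to 18. Ermard also had 6. Foxl1, a forkhead factor of mesenchyme, had 5 calls, all from 109 to 187 kb away, with totals from 58403 to 106533 and a pSmad3 peak as near as 2164 bp. Cct6b, Gm30733 and Cryba4 had 5 each, and at Gm30733 the totals were high, from 97467 to 223746. In all, 14 genes had 5 calls, and the rest of these tied genes are not among the 10 named. At 8 of these 10 genes, Foxl1 and Gadd45g among them, no pSmad1/5 peak lay in the gene or within 1 kb of it. The same share over all protein-coding genes was not counted, so this is description and sets these genes apart from no others.

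**Figure D4:**
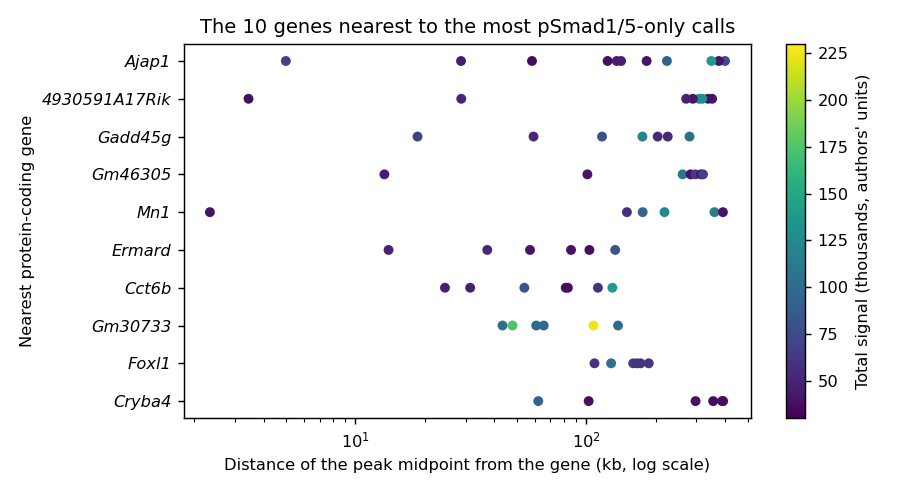
Distance of each peak midpoint from the gene (kb, log scale) for 10 protein-coding genes nearest to the most calls, with colour for total signal (authors' units divided by 1000). Other genes tied at 5 calls are not shown. Ajap1 spans 4.997 to 399 kb, while all peaks of Foxl1 lie between 109 and 187 kb.

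Genes of tooth development, of the BMP pathway and of cell types that a germ can hold were compared through 12 lists. A gene counted where it was the nearest protein-coding gene of a peak within 100 kb. By this rule 1613 of 20560 protein-coding genes had a peak, or 7.85%, and 42 of the 252 list genes did, or 16.7%. The list genes also had more space around them: the median space within 100 kb that was nearest to a gene was 34.25 kb for list genes and 13.7 kb for all protein-coding genes. Per Mb of that space, list genes had 4.52 peaks (exact Poisson 95% interval 3.46 to 5.81) and all genes 3.26 (3.12 to 3.41). Their 61 peaks came from 53 calls, so rows of 1 call are counted more than once in that interval. Counted by calls the densities were 3.93 (2.94 to 5.14) and 2.93 (2.80 to 3.07) per Mb, and these intervals overlap. The pSmad3-only peaks between genes were also denser at list genes, at 3.19 per Mb (2.31 to 4.29) against 2.43 for all genes (2.31 to 2.55), with overlapping intervals.

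Of these 61 peaks, 20 lay within 10 kb, 25 at 10 to 50 kb and 16 at 50 to 100 kb. Distances to genes, here and below, are from the peak midpoint. Total signals ran from 35980 to 199333 and maxima from 11 to 22. The strand was known for 31, of which 13 were upstream and 18 downstream. Which gene a peak acts on, if any, was not measured.

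Among extracellular signals, Bmp7, a BMP ligand of the tooth germ, had 2 peaks on chromosome 2, at 23.129 and 94.838 kb, with totals of 49651 and 90657. Fgf8, a growth factor of the dental epithelium, had 2 pieces of 1 call at 15.036 and 26.665 kb, with a total of 66646. Nog codes for Noggin, an antagonist that binds BMP ligands outside the cell. Its peak lay 9.705 kb away (chromosome 11, 89289844 to 89292022, total 47004, maximum 12), with no pSmad1/5 or pSmad3 peak in the gene or within 1 kb.

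Receptors were also among the genes with peaks. Fgfr3 had 2 peaks upstream, at 7.267 and 15.129 kb, with totals of 36933 and 81539. Fgfr1 had a peak at 5.859 kb with a total of 53923, and the nearest pSmad3 peak was 832 kb from it. Edar, the receptor that signals in ectodermal organs, had a peak 6.494 kb downstream with a total of 54779. In all, 10 of 44 genes of signals and receptors had a peak, or 22.7%, against 7.85% of all protein-coding genes. Their density was 4.99 peaks per Mb of their space (2.79 to 8.23), an interval that holds the 3.26 of all genes. By calls (12 for 15 peaks) it was 3.99 (2.06 to 6.97), against 2.93 for all genes. The pSmad3-only density was 2.33 (0.936 to 4.80). The others, the ligands Wnt7b and Fgf3 and the receptors Fgfr2 and Tgfbr2, fell outside the rule for named genes and were added after their values were seen. Their totals were 35980 to 46115, all below the list median.

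Inside the cell, the Smad genes that had peaks were Smad7 and Smad2, of 8 in the family. Smad7, an inhibitory Smad that BMP and TGF-β signals both induce, had 2 peaks on chromosome 18, at 16.429 and 38.223 kb, with totals of 49256 and 75405. The 11.3 kb between the first of these and the nearest pSmad3 peak, and a pSmad3 peak in the gene itself or within 1 kb, show both lists near Smad7. Smad2, a transducer of TGF-β signals, had 5 peaks from 3 calls at 23.121 to 93.476 kb. Of these, 3 were pieces of 1 call with a total of 107767, and the other totals were 57460 and 44886. No peak of either list lay in Smad2 or within 1 kb. The 5 calls near Smad genes gave 9.63 per Mb of the family's space (3.13 to 22.5), an interval that starts close to the 2.93 of all genes by calls, and 3 of the 5 stood near Smad2. The pSmad3-only list had 0 peaks there, which allows up to 7.10 per Mb.

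The list of BMP target genes had peaks at 8 of 28 members, or 28.6%. Their 9 peaks gave 4.20 per Mb of their space (1.92 to 7.97), an interval that holds the 3.26 of all genes, and the pSmad3-only density was 1.87 (0.508 to 4.78). Whether Smads bind these genes directly was not checked. Id3, an inhibitor of DNA binding and a classical BMP target, had a peak 43.099 kb upstream (chromosome 4, 136099632 to 136101815, total 52841, maximum 13) whose region of highest signal lay inside it. Atoh8, a BMP-induced factor, had one 4.874 kb upstream with a total of 67050. Tbx2, a T-box factor, had one 1.637 kb away with a total of 66146.

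The other BMP targets with a peak were Smad7, Nog, Msx1, Runx2 and Gata3, of which Msx1 and Gata3 were added after their values were seen. Msx1, the homeobox factor that acts with BMP4 in dental mesenchyme, had a peak 3.102 kb downstream (chromosome 5, 37815083 to 37819696). Its total of 39828 was above only 16.6% of the list, and its maximum of 18 was above the list median. The highest signal lay inside the peak, and the nearest pSmad3 peak was 288 kb away. Runx2, needed for bone and tooth formation, had a peak 73.483 kb downstream with a total of 37903, and Gata3, a zinc-finger factor, one 58.167 kb downstream with 37973. All 3 totals were low in the list.

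Transcription factors of the dental mesenchyme had peaks at 7 of 42 genes, and their density of 3.06 per Mb of space (1.47 to 5.63) was near that of all genes. Their 10 peaks came from 9 calls, at 2.75 calls per Mb (1.26 to 5.23). The pSmad3-only density there was 3.37 (1.68 to 6.02). Snai2, a zinc-finger factor of neural crest and mesenchyme, had 4 peaks from 3 calls at 16.733 to 85 kb, all on the same side, with totals from 41842 to 48008. No peak of either list lay in Snai2 or within 1 kb, and pSmad3 was 295 kb or more from each. Gli2 and Gli1, the factors of Hedgehog signalling, had 1 peak each, at 22.786 kb upstream with a total of 60956 and at 1.954 kb with 46453. Twist2 and Six2, added after their values were seen, had totals of 37622 and 36059.

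Epithelial genes with a peak included Krt14, a keratin of basal epithelium, with a total of 97140. The midpoint of the Krt14 peak lay 1.281 kb upstream, and its edge reached over the 5′ end of the gene. Ovol1, a zinc-finger factor of epithelium, had 2 pieces of 1 call and a total of 76007, and the T-box factor Tbx1 had a peak with 61662. In all, 4 of 30 genes of the list had a peak, at 4.19 peaks per Mb (1.36 to 9.77). The 5 peaks came from 4 calls, at 3.35 calls per Mb (0.912 to 8.57). TGF-β target genes had peaks at 1 of 23, which was Smad7, and that density was 2.54 per Mb (0.307 to 9.16). The intervals of both lists hold the 3.26 of all genes. The pSmad3-only densities were 6.70 (2.89 to 13.2) for the epithelial and 6.34 (2.06 to 14.8) for the TGF-β target genes.

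**Figure D5:**
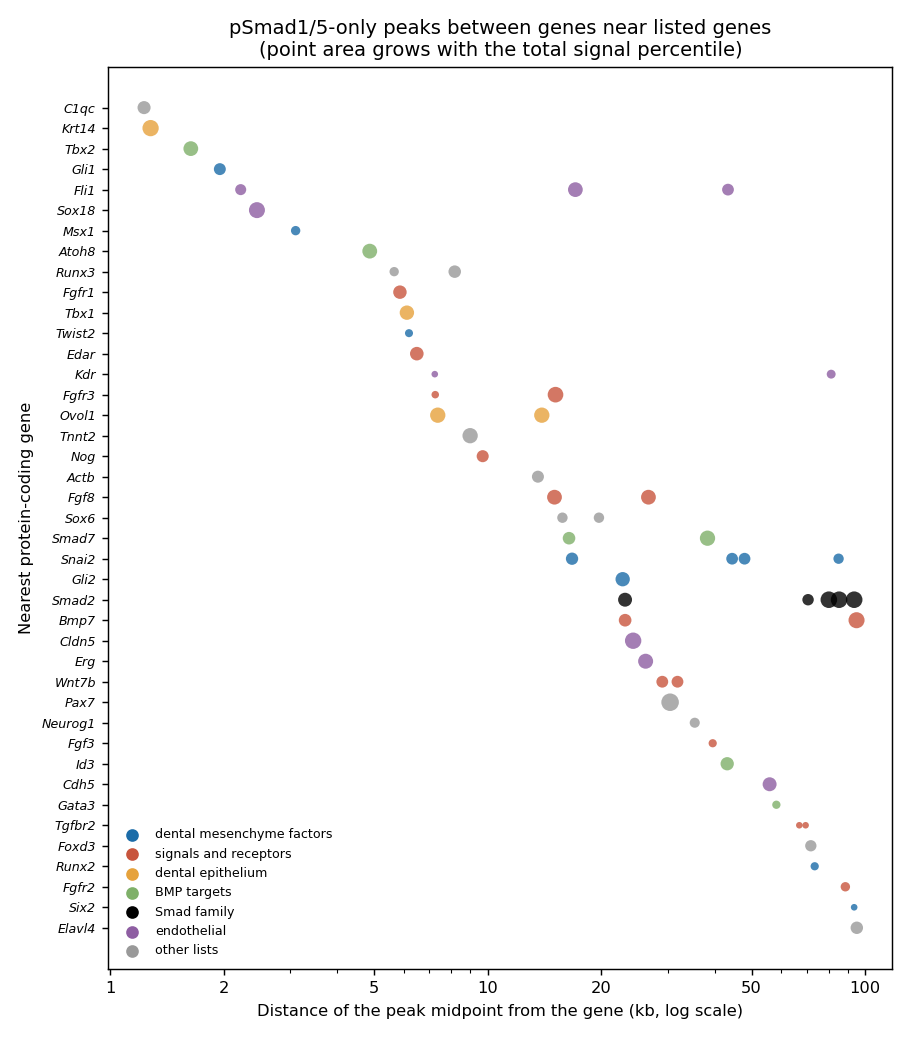
Distance from the gene (kb, log scale) of the peaks whose nearest protein-coding gene is on a list, within 100 kb, with 1 line per gene (1 gene is not shown), colour by the first list that holds the gene and point area growing with the total signal percentile. Peaks run from 1.231 kb at C1qc to 94.996 kb at Elavl4, and Smad2 and Snai2 have the most.

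Markers of other cell types had such peaks too. Endothelial genes had the highest share of the lists, 6 of 20 or 30%, and 9 peaks from 9 calls gave 10.8 per Mb of their space (4.92 to 20.4), an interval above the 3.26 of all genes. The lists were compared without a test of this difference. Cldn5, a tight junction protein of vessels, had a peak 24.289 kb upstream with a total of 100165. Sox18, a factor of vessel development, had one 2.450 kb away with 88986. Erg, an ETS factor, had one 26.209 kb downstream with 69731, and Cdh5, the cadherin of vessels, one at 55.819 kb with 57649.

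Fli1, another ETS factor, had 3 peaks on 1 side at 2.219, 17.078 and 43.308 kb, with totals of 43739, 65974 and 45985. Kdr, a receptor for vascular growth factors that was added after its values were seen, had 2, with totals of 38928 and 35997. Among the totals at Fli1 and Kdr, only 65974 was above the list median of 55037. For the same 20 endothelial genes the pSmad3-only list had 1 peak (1.20 per Mb, 0.0303 to 6.66), an interval that overlaps that of pSmad1/5-only peaks. BMP signals through Smad1/5 are known to act in endothelium, which a germ can hold. The part of endothelial cells in the result was not tested.

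The remaining cell type lists were smaller in number. Nerve and neural crest genes had peaks at 3 of 15 (Elavl4, Foxd3 and Neurog1), muscle genes at 2 of 11 (Pax7 and Tnnt2), cartilage and bone genes at 3 of 16 (Runx3, Sox6 and Runx2), and myeloid genes at 1 of 16 (C1qc). Of the housekeeping genes, a control list, 1 of 14 had a peak, Actb at 13.591 kb with a total of 46802. Pax7, a factor of muscle progenitors and neural crest, stood near the strongest of all 61 list peaks, a piece of a call in 4 pieces with a total of 199333. Densities were 2.94 per Mb of space for nerve, 7.35 for muscle, 4.75 for cartilage and bone, 3.02 for myeloid and 4.89 for housekeeping genes, and every one of these 5 intervals holds 3.26.

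Genes near these peaks and genes near pSmad3-only peaks between genes were partly the same. The pSmad3-only peaks had 1252 genes by the same rule, 6.09% of protein-coding genes, and 330 genes were in both sets. That is 20.5% of the genes near pSmad1/5-only peaks and 26.4% of the genes near pSmad3-only peaks. Of the genes with pSmad1/5-only peaks, 1305 had 1 peak, 228 had 2 and 80 had 3 or more.

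The highest total signals belonged mostly to calls in many pieces. The peak nearest Sprr2a2, a gene of the cornified envelope, had a total of 611514, as a piece of a call in 8 pieces and 0.311 kb from a pSmad3 peak. Those nearest Tcp10c, with 581615, and Gm40847, with 562010, were pieces of calls in 9 and 8 pieces. The next totals were 459176 at Gm21154, 427152 at Pdia5 and Sema5b (2 pieces of 1 call in 12), 426571 at Dynlt1f, 416130 at Gm3476, 407786 at Gm14410 and 336528 at Gm10377. None of these 10 peaks held the whole region of highest signal of its call.

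The highest maxima, 30 to 32, are set by the limit. With ties ordered by total signal, the first 10 belonged to the peaks nearest Gm3476, AY761185, Hes3, Laptm5, Alkbh5, Cst7, Gm21154, Gm6943, Pced1b and Piwil1. Only those at Cst7 and Piwil1 held the whole region of highest signal inside them. Of these genes, Hes3 codes for a Notch-related repressor, and its peak lay 1.246 kb away with a total of 215833.

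The widest peak, 9189 bp nearest Ldc1, had a total of 107327. Its midpoint lay 2246 bp from Ldc1, and its edge reached into that gene. The next were 7984 bp at Aldh1b1, 7611 bp at Cbwd1, 7192 bp at A26c2 and 6987 bp at Slco6d1. All but that at Aldh1b1 were in 1 piece with the highest signal inside. The peaks farthest from protein-coding genes lay 1920 kb and 1421 kb from Lrrc4c, 1746 kb from Cntnap5a, 1589 kb from Adgrl3 and 1580 kb from Efna5. Except for Efna5, an ephrin, these genes code for adhesion proteins of neurons. Totals at these 5 peaks were 36785 to 43833, all low in the list.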

How the data were processed

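CUT&RUN was done on wild-type CD1 molar germs at E13.5, with 2 libraries per antibody. The submitters' processing notes name Bowtie2, SAMtools, SEACR, bedtools, deepTools and mm10. Their settings, and the way in which both libraries' lists became 1, are stated in no source used here. Total and maximum signal, as deposited, are coverage sums and heights on a scale of the authors. They were compared only within the pSmad1/5 list, and may come from 1 library's call.

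Positions, overlaps and distances were computed with Python 3.11.15, numpy 2.4.6, pandas 2.3.3 and scipy 1.17.1, and tested on simulated data. Genes came from RefSeq (GRCm38.p6): 20560 protein-coding and 12324 lncRNA genes on chromosomes 1 to 19. Genes placed before 3 Mb were not used. Strand came from the RefSeq promoter table. Space between genes was measured on a grid of 100 bp. Medians have exact order-statistic intervals at 95%. Intervals over peaks count pieces of 1 call separately and are too narrow where such pieces occur.

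The peaks, lists and rules were chosen with earlier results of these data known. Named genes are the protein-coding genes closest to the 10 highest totals, the 10 highest maxima, the 5 widest peaks and the 5 farthest from genes, the 10 genes with the most calls, up to 6 peaks per gene list by total signal, and the 5 windows of 1 Mb with the most calls. The planned search for Smad motifs in the peaks was not run, because no genome was used here, and RefSeq promoter windows were searched instead. For 1 list gene with a peak, the values are not reported here, and it is counted in the list totals. Figures were drawn with matplotlib 3.10.9.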

Additional observations from a re-analysis of the deposited data

How the results depend on the processing

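Some results were recomputed under 11 settings, of which 3 were chosen after seeing the data (highest signal inside the peak, peaks of 500 bp or more, protein-coding genes only). They were the number of peaks, the number near list genes, the share upstream, and the medians of total signal, width and distance to protein-coding genes and to pSmad3. Densities, spacing, windows, comparisons between classes and motif shares were not recomputed. The share upstream stayed between 49.6 and 52.1% in all 11. The number of peaks ran from 701 to 3323. With only totals above the list median, there were 999 peaks, with medians of 78254 for total signal, 2411 bp for width, 24400 bp to a protein-coding gene and 32881 bp to pSmad3, and 23 peaks near list genes. A gene margin of 10 kb gave 1586 peaks, 46933.5 for total signal, 55004 bp to a protein-coding gene, 70568.5 bp to pSmad3 and 35 near list genes. Peaks with the highest signal inside numbered 701, with 44545 for total signal, 2592 bp for width, 31118 bp to a protein-coding gene, 78637 bp to pSmad3 and 14 near list genes. Joining pieces of a call gave 46108.5 for total signal, 2495.5 bp for width and 66221 bp to pSmad3. Widening pSmad3 peaks by 5 kb gave 47147 and 70397 bp, and counting an overlap only from 50% of the peak gave 51010 bp to pSmad3. Peaks of 500 bp or more had a median width of 2385 bp. Each of these settings keeps another set of peaks. No paired analysis was possible because each antibody has 1 joined list with no value per library, so no library could be left out either. The motif search in the peaks was not run under any setting.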

Other observations

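Genes of other types lay under some peaks. Of the 2678 peaks, 140 (5.23%, exact 95% interval 4.42 to 6.14) overlapped a gene that is neither protein-coding nor lncRNA, 112 of them a pseudogene. That share was 7.09% among pSmad3-only peaks between genes (5.97 to 8.34) and 12.5% among pSmad1/5 peaks between genes shared with pSmad3 (9.89 to 15.5). Small RNA genes were few: 4 peaks overlapped snoRNA genes, 4 snRNA genes, 2 tRNA genes and 1 an rRNA gene. A peak on chromosome 13 (23400098 to 23401754, total signal 43032) covered the tRNA genes n-TAagc12 and n-TVaac2, nearest to Abt1. A peak over the snRNA gene Gm25186 (chromosome 13, 31737003 to 31739728, total signal 43975) was nearest to Foxc1, a forkhead factor of neural crest mesenchyme. The region of highest signal of 327 peaks (12.2%) had its midpoint in a gene or within 1 kb of one, although the peak itself lay between genes. Of the peaks, 70 (2.61%) reached with an edge into a protein-coding or lncRNA gene.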
